A study of Homo sapiens with 27 samples.

Results

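Pseudouridine (Psi) peaks were set against 7-methylguanosine (m7G) peaks in RNA of HepAD38, an established human liver tumour line. A Psi peak was counted as inside when its summit, its highest point, lay in a block of a listed m7G peak. A block is 1 uninterrupted piece of a peak, and a peak can skip over unlisted bases between its blocks. The comparison group was Psi peaks in the spans of m7G-listed genes with the summit outside every m7G block. Of 16672 Psi peaks, 9712 lay in the span of an m7G-listed gene. Of these 2924 were inside (30.1%, 95% exact Clopper-Pearson interval 29.2 to 31.0) and 6788 were outside. Another 9 peaks lay in an m7G block but in no placed span of a listed gene, and 6951 lay elsewhere. Of the m7G-listed genes, 4287 had a Psi peak in the span, 1936 had at least 1 inside and 3504 had at least 1 outside, with 1153 having both kinds.

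The 9 libraries behind this comparison were 3 Psi libraries, 3 m7G immunoprecipitates (IP) and 3 m7G inputs. All were total RNA of the same cell line, labelled wild type, and no treatment other than the modification assayed was labelled. The labels do not say whether the Psi libraries were IP or input, whether hepatitis B virus expression was switched on in this inducible line, or whether libraries with the same label were made from separate cultures. The study's stated aim concerned the part of RNA modifications in evolution, and its lists for N1-methyladenosine (m1A), 5-methylcytidine (m5C) and N4-acetylcytidine (ac4C) are used below only to mark transcribed stretches and for comparison. Each list pooled its libraries, so there is no replicate error and no test across samples, and intervals cover counting error only. The m7G IP held 263344365 reads and its input 259416505, recovered from the steps of the values. The Psi list rested on 2218798 tags left after filtering. Of 9 hepatocyte markers 8 had an m7G peak, with SERPINA1 at 0, and all 3 hepatoma or fetal liver markers had one. The fibroblast markers (0 of 6) and endothelial markers (0 of 3) were absent from the list, and 1 of 3 immune and 1 of 3 biliary markers were present. For scale, 7962 of 59792 RefSeq gene spans were placed as m7G-listed genes. The hepatocyte marker TTR counted as present with an input of only 1.10 RPM (reads scaled to library depth).

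Pseudouridine is an isomer of uridine made after transcription, either by stand-alone synthases or by dyskerin guided by H/ACA small nucleolar RNAs. It is abundant in ribosomal, transfer and spliceosomal RNA and also occurs in mRNA. 7-methylguanosine forms the cap at the 5′ end of mRNA, where it recruits the translation factor eIF4E, and it also occurs inside transfer RNA, ribosomal RNA and some mRNA. Because the cap lies at the 5′ end, peaks are described below by distance from that end. The distance is counted on the genome, introns included, and does not separate m7G at the cap from m7G inside the transcript. An m7G peak of several blocks can begin at the 5′ end and hold a Psi summit far from it, as in RPS14, with the summit at 2805 bases. Of the inside summits beyond 500 bases 77.9% lay in m7G peaks of more than 1 block.

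The sequences shown are those where a Psi peak and an m7G peak share bases just after the start of a gene, where the overlap described below was most frequent. Among the named genes 5 had such a pair reaching at least 10 bases into the window from 30 bases before to 30 bases after the start site. Their windows are shown 5′ to 3′ on the gene's strand, from RefSeq on GRCh38.p14, with the bases that both peaks cover in capitals. They come from chr4:73404257-73404316 (ALB), chr19:48965279-48965338 (FTL), chr2:215436039-215436098 (FN1, minus strand), chr5:137754334-137754393 (HNRNPA0, minus strand) and chr4:73436191-73436250 (AFP).
ALB: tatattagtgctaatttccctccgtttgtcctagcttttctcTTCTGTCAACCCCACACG
FTL: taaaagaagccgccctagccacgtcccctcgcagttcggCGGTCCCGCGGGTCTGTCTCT
FN1: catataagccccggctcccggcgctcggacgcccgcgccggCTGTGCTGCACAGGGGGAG
HNRNPA0: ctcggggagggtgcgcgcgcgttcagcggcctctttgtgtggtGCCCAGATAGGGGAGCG
AFP: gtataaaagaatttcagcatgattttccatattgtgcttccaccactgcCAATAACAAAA
The shared part ran for 18 of the window's bases in ALB, 21 in FTL, 19 in FN1, 17 in HNRNPA0 and 11 in AFP. In each window it ran to the last base shown, and both peaks went on into the transcript. The shared bases began after 12 transcribed bases in ALB, 9 in FTL, 11 in FN1, 13 in HNRNPA0 and 19 in AFP, so the Psi peaks did not reach the very first ones. These genes encode the main plasma protein, the ferritin light chain, fibronectin, an RNA-binding protein and alpha-fetoprotein.

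In the wider promoter windows of RefSeq, 250 bases before to 50 after the start, letters were counted on both strands for 680 of the 853 genes with an inside Psi peak within 500 bases of the 5′ end. The GC box, searched as GGGCGG, was in 74.3% of these windows. The TATA box, searched as TATAAA, was in 6.03%. The CCAAT box was in 42.4%. Over the 6519 windows of all m7G-listed genes the shares were 69.3%, 5.37% and 38.2%, and over all 27305 windows 44.6%, 11.95% and 35.7%. Among 297 genes whose Psi peaks within 500 bases were all outside m7G blocks, the GC box was in 80.8%, the TATA box in 5.39% and the CCAAT box in 38.0%. Their median GC content was 69.0%, against 66.0% for the genes with an inside peak there and 58.3% over all windows. The differences between these gene groups were not tested.

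The overlap depended strongly on position. Within 500 bases of the 5′ end 953 of 1450 Psi summits were in an m7G block (65.7%, 63.2 to 68.2), and beyond 500 bases 1971 of 8262 were (23.9%, 22.9 to 24.8). The overlap thus remained beyond 500 bases at a lower share, and 67.4% of all inside peaks lay there. By class of distance the share was 75.1% at 0 to 200 bases, 43.4% at 201 to 500, 46.9% at 501 to 1000, 35.1% at 1001 to 5000 and 21.9% over 5000. The inside peaks within 500 bases were bunched at the start, with a median of 89 bases from the 5′ end (82 to 96), while the outside peaks had a median of 198 (182 to 215).

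**Figure D1:**
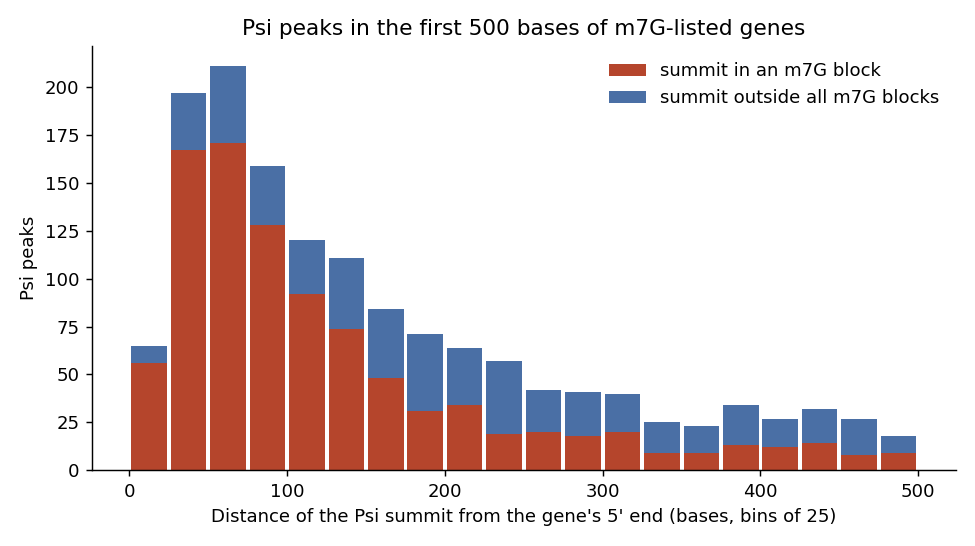
Psi peaks in the first 500 bases of m7G-listed genes, counted in bins of 25 bases of the summit's distance from the 5′ end, with inside peaks stacked below outside peaks. Counts are highest from 25 to 74 bases, where 167 and 171 peaks a bin were inside and 30 and 40 outside, and from 200 bases on no bin holds more than 34 inside or 38 outside.

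Gene spans hold introns and unexpressed bases that no antibody list covers, so the share was then matched for position. Psi summits were counted only where they lay in a stretch listed for m1A, m5C or ac4C, and were set against the share of the same genes' stretch bases, in the same distance class, that m7G blocks covered. Within 500 bases 82.3% of 813 such summits were in an m7G block (79.5 to 84.9), and m7G blocks covered 79.1% of the stretch bases, a ratio of 1.04 (1.005 to 1.07). Beyond 500 bases 1760 of 3266 summits were inside (53.9%, 52.2 to 55.6), and m7G blocks covered 36.0% of the bases, a ratio of 1.50 (1.45 to 1.54). Coverage sets a ceiling on this ratio, 1.26 within 500 bases and 2.78 beyond, so the values near and far cannot be set directly against each other. Counted from the other side, 17.7% of the summits within 500 bases were outside m7G blocks with 20.9% of the bases uncovered (0.847, 0.724 to 0.980), and beyond 500 bases 46.1% were outside with 64.0% uncovered (0.721, 0.694 to 0.748). Psi summits thus fell in m7G blocks at a share above the covered share beyond 500 bases, and at one only slightly above it within 500 bases. Whether the near and far values differ was not tested. The ratio was 1.02 at 0 to 200 bases, 1.10 at 201 to 500, 1.17 at 501 to 1000, 1.27 at 1001 to 5000 and 1.57 over 5000, with ceilings from 1.16 in the first class to 3.03 in the last. When the bases were taken from the same 10% of the gene's length instead, the covered share beyond 500 bases was 42.5% and the ratio 1.27. How far transcript abundance along a gene, which both lists can follow, enters this ratio was not tested.

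**Figure D2:**
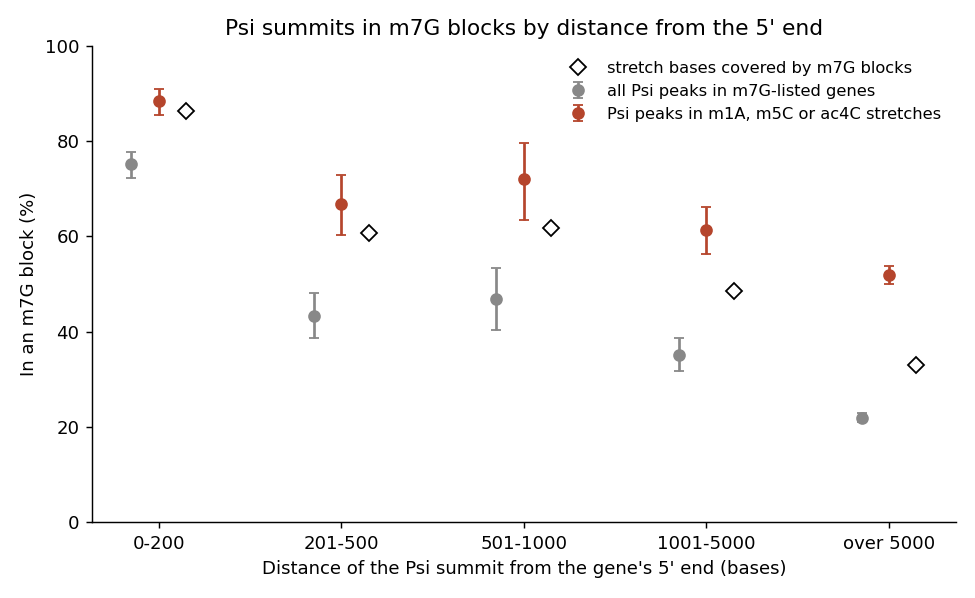
Share of Psi summits in an m7G block against distance from the 5′ end, for all Psi peaks of m7G-listed genes (grey) and those in stretches of the other lists (red), with 95% exact intervals, beside the share of stretch bases that m7G blocks cover (diamonds). The red points lie on the diamonds at 0 to 200 bases (88.5% against 86.4%) and well above them over 5000 bases (51.9% against 33.0%).

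Beyond 500 bases the excess over the covered share was not the same for summits at different places along the transcript. Within 500 bases of the 3′ end 26.3% of 266 summits were inside with a covered share of 25.2%, a ratio of 1.05. This covered share, as in the ratios by place that follow, was taken over the same class of distance from the 5′ end. It was not taken over the bases near the 3′ end or in that part of the span. How densely m7G blocks cover those places was therefore not matched. From 501 to 1000 bases of the 3′ end the ratio was 1.45, from 1001 to 5000 it was 1.49, from 5001 to 20000 it was 1.53, and farther away 1.54. Among these classes the ratio was thus near 1 only within 500 bases of the 3′ end, where the share of the 266 summits had an interval of 21.1 to 32.0. By place along the gene's span the ratio was 1.30 in the first 20% and 1.45 in the last 20%. Between them it was 1.56 to 1.61. Where in the m7G peak the Psi summit sat also differed. On a scale from 0 at the 5′ edge of the m7G peak to 1 at its 3′ edge, the median place was 0.392 (0.372 to 0.415) for summits within 500 bases and 0.625 (0.607 to 0.644) beyond. Only 8.07% of the summits beyond 500 bases sat in the first 20% of the m7G peak and 27.8% in the last 20%. In an m7G peak that begins at the gene's 5′ end, a near summit must fall before a far one. The split by distance thus builds in part of this contrast, and how much was not tested.

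The same count was made with the other antibody lists as the target, each against stretches of the remaining lists. Beyond 500 bases the ratio for Psi summits was 1.11 (1.08 to 1.13) in m1A blocks, 1.20 (1.16 to 1.24) in m5C blocks and 1.40 (1.23 to 1.57) in ac4C blocks, against 1.50 in m7G blocks. The lists cover different shares, with m1A blocks covering 68.6% of the stretch bases and ac4C blocks 8.36%, so the ratios have different ceilings, and the difference between lists was not tested. Of the inside summits 74.1% lay in an m1A block too, 58.7% in an m5C block and 9.99% in an ac4C block, and 16.9% lay in none of the 3. Of the outside summits 19.2%, 10.3% and 1.46% lay in such blocks and 75.7% in none. A Psi summit outside m7G was thus most often one that no antibody list covered at all.

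Pileup, the number of extended tags over the summit, measured the height of a Psi peak. Its median was 4 both inside (interval 4 to 4) and outside (4 to 4), and the means were 4.73 and 4.39. Peaks with a pileup of 5 or more made up 47.9% of the inside peaks (46.1 to 49.7) and 36.0% of the outside peaks (34.8 to 37.1). With both kinds in a stretch of another list the shares were 51.3% inside (49.3 to 53.3) and 46.8% outside (44.4 to 49.3), and the outside peaks in no listed stretch had 32.5% (31.2 to 33.8). Beyond 500 bases in such stretches the shares were 53.6% (51.2 to 55.9) and 47.9% (45.3 to 50.4). These intervals cover counting error over peaks that share genes and libraries, and the difference was not tested. At a pileup of 5 or more the difference was thus smaller, though still present, once both kinds lay in listed stretches. By distance class it went the other way at 1001 to 5000 bases, at 65.0% of 246 inside and 67.7% of 155 outside. In the other classes the inside share was higher. The mean pileups in these stretches were equal, at 4.87 inside and 4.87 outside. Tall peaks were no more frequent inside, with a pileup of 10 or more in 2.70% of inside peaks (2.14 to 3.36) and 3.62% of outside peaks (3.19 to 4.10). Without ribosomal RNA genes these shares were 2.64% and 3.12%. With both kinds in a stretch of another list tall peaks were less frequent inside, at 2.96% (2.33 to 3.72) against 5.09% outside (4.08 to 6.26). That difference was not tested. The caller kept 1 tag per position and extended tags to 20 bases, so a pileup cannot exceed 20 from 1 strand or 40 from both, and the tallest peaks are compressed.

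Within genes the heights were close. Among 1152 genes with both kinds of peak, ribosomal RNA genes left out, the mean inside pileup was higher in 515, tied in 154 and lower in 483. With both kinds beyond 500 bases and in listed stretches, it was higher inside in 183 of 345 genes, tied in 44 and lower in 118, with a median difference of 0.5 tags. Peak length moved with the same grouping, with a median of 25 bases inside and 20 outside, and 36.0% of the inside against 54.2% of the outside peaks had the shortest length listed, 20 bases. Its part in the difference of pileup was not tested.

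The tallest inside peak was that of IGF2, a fetal growth factor gene made by fetal liver and many hepatomas. It lay on chromosome 11 (2132638 to 2132661), 16917 bases from the span's 5′ end, with a pileup of 20. Its m7G peak of 1250 bases had 19938 RPM (reads scaled to library depth) in the IP and 18750 in the input, an RPM ratio of 1.06 (1.06 to 1.07), so IP and input were nearly equal there. IGF2 had 11 Psi peaks in all, 4 inside with pileups of 20, 19, 12 and 12 and 7 outside with pileups of 6 to 16, and its m7G peaks had ratios from 0.910 to 7.12. The inside peaks were as tall as or taller than all but 1 of the outside peaks.

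ALB, the serum albumin gene, followed with a pileup of 18 on chromosome 4 (73404299 to 73404388), with the summit 65 bases from the 5′ end. That peak, whose first bases are printed above, was 14.8-fold over the local background, the caller's own value. The m7G peak over it had 487 RPM in the IP and 271 in the input, a ratio of 1.80 (1.78 to 1.82). The other 4 inside peaks of ALB had pileups of 8, 11, 11 and 8, and the m7G peaks holding 3 of them farther in had ratios of 0.518, 0.532 and 0.485. The 4 outside peaks of ALB had pileups of 8, 12, 14 and 15. Along ALB the m7G peak at the 5′ end was thus the only one of its 4 with more IP than input, whereas Psi peaks ran the length of the gene.

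FTL showed the same order in a short gene. Its Psi peak on chromosome 19 (48965318 to 48965396) had a pileup of 17 with the summit 59 bases from the 5′ end, in an m7G peak with a ratio of 2.15 (2.10 to 2.20). Its other 2 Psi peaks, at 1023 and 1379 bases, had a pileup of 8 each and no m7G block. Others of the 10 tallest inside peaks within 500 bases were those of EIF4EBP2, a repressor of eIF4E, with a pileup of 14 and a ratio of 2.43, of PABPC1, the cytoplasmic poly(A)-binding protein gene, with 14 and 3.49, and of FN1, with 13 and 2.96.

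Beyond 500 bases the tallest inside peaks stood in m7G peaks of lower ratio. PEG10, an imprinted gene derived from a retrotransposon, had a pileup of 17 in an m7G peak of ratio 0.614 (0.596 to 0.633). The RNA-binding protein genes HNRNPA3 and HNRNPA2B1 had 13 each at ratios of 1.12 and 1.14, and CAMK2N1, a kinase inhibitor gene, had 13 at 1.32. DHRS2, a dehydrogenase/reductase gene, had 13 at 0.873. PTMS, the parathymosin gene, with 13 at 1.87, ARL6IP4 with 13 at 1.97 and USB1, an exonuclease gene for U6 small nuclear RNA, with 12 at 2.59 were higher. A 28S ribosomal RNA copy, RNA28SN3, had a pileup of 18 at 1.16, and its assignment among near-identical copies is uncertain.

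The tallest peaks outside m7G blocks included the ribosomal RNA genes, with 35 of their 37 Psi peaks outside and pileups up to 20. These copies are near-identical, and their peaks cannot be assigned with certainty. Beside them stood AAMDC with a pileup of 19, RPL10 with 19, SNORD3A, the U3 small nucleolar RNA gene, with 18, ITIH2, a plasma protein gene, with 18, SELENOP, the selenoprotein P gene, with 18, and DDX17, an RNA helicase gene, with 18. PEG10 with 17, IGF2 and the fibrinogen gene FGB with 16 each and the beta-catenin gene CTNNB1 with 15 completed the 10 tallest without ribosomal RNA. RPL10 and SNORD3A have near-identical copies and are uncertain too. The peaks of AAMDC, SELENOP and IGF2 given here, and the tallest inside peaks of IGF2 and FN1, lay in 2 gene spans each. The Psi list gives no strand, so the gene of these peaks is not certain either. IGF2 and PEG10 stood among the tallest on both sides, inside and outside m7G blocks.

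The m7G signal itself was compared between m7G peaks that hold a Psi summit and others, as IP RPM over input RPM of each peak. Of 2455 holding peaks 907 had a ratio of 2 or more (36.9%, 35.0 to 38.9), against 37.6% of all 16942 listed m7G peaks, so the share of holding peaks was near the background. The median ratio was 1.41 (1.37 to 1.47) for holding peaks and 1.36 (1.34 to 1.39) for the whole list. The 3440 other m7G peaks of the same genes had a median of 1.04 (1.02 to 1.05), 1.36-fold lower than the holding peaks. Distance from the 5′ end, with which the ratio itself changes, differed between the kinds, since 32.9% of the holding but 15.6% of the other peaks lay within 500 bases. Within 500 bases the medians were 3.22 (2.995 to 3.43) for 807 holding and 3.34 (3.16 to 3.60) for 536 other peaks, with overlapping intervals. Beyond 500 bases they were 1.17 (1.15 to 1.19) for 1636 holding and 0.964 (0.953 to 0.977) for 2893 other peaks. The fold of holding over other peaks was thus 0.963 within and 1.21 beyond 500 bases, both below the 1.36 of all distances together. By distance class, with input not matched, it was above 1 only at 1001 to 5000 bases (1.07) and over 5000 (1.18). Of the holding peaks beyond 500 bases 31.7% had less IP than input, compared with 54.8% of the others.

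Compared gene by gene, the holding peaks had the higher ratio in 913 of 1453 genes, with a median fold of 1.22. Within 500 bases it was higher in 28 of 63 genes, with a median fold of 0.836. Beyond 500 bases it was higher in 608 of 933 genes, with a median fold of 1.15. Holding peaks were also larger and more abundant, with a median input of 32.2 RPM and 250 bases beyond 500 bases, against 8.21 RPM and 125 bases for the others. In each of 5 classes of input RPM beyond 500 bases the holding peaks had the higher median, at 3.01 against 1.55 in the lowest and 1.14 against 0.934 in the highest. By width the order held in 4 of 5 classes, and in peaks of 51 to 100 bases the medians were 0.965 and 0.971.

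For the Psi peaks themselves, the m7G ratio over an inside summit declined with distance. Its median was 3.35 at 0 to 200 bases, 2.18 at 201 to 500, 2.05 at 501 to 1000, 1.38 at 1001 to 5000 and 1.15 over 5000. A taller Psi peak did not stand in a higher m7G ratio. Spearman's rho between pileup and ratio was -0.15 over 2922 inside peaks without ribosomal RNA, and -0.06 beyond 500 bases, whereas that between pileup and the m7G input per base was 0.38. These describe peaks that share libraries and transcripts and are no test.

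The 6 highest m7G ratios among holding peaks stood over Psi peaks no taller than the inside median pileup of 4. SMC2, a condensin subunit gene, had a ratio of 14.6 (10.6 to 20.5) over Psi peaks of which the tallest had a pileup of 3, 6086 bases from the 5′ end. The others of the 6 highest were within 200 bases of the 5′ end. In order they were HS2ST1, a heparan sulfate sulfotransferase gene (13.9, 12.1 to 16.0), CTSC, the cathepsin C gene (13.6, 10.6 to 17.5), ANKRD28, a protein phosphatase subunit gene (interval 11.01 to 13.10), HEXA, a lysosomal hexosaminidase gene (11.8, 5.17 to 33.3), and VCL, the vinculin gene (11.3, 9.98 to 12.9). Pileups there were 3 or 4, and the input was 0.023 RPM in HEXA and 2.16 RPM in ANKRD28.

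Some genes held many Psi summits in m7G blocks. Most m7G peaks with a Psi summit held 1 (2062 peaks), 320 held 2, and a single peak held 10. That peak was EIF3A's, of 2600 bases in 12 blocks, with 4946 RPM in the IP and 3595 in the input, a ratio of 1.38 (1.37 to 1.38). EIF3A encodes the largest subunit of initiation factor eIF3. Its 10 inside peaks had pileups of 3 to 9 and lay 22665 to 42539 bases from the 5′ end, and its 2 outside peaks, with 6 each, lay at 7261 and 7796 bases in no listed stretch. PRRC2C also had 10 inside, ZC3H13, a gene of the m6A writer complex, had 8, and HNRNPM, MYH9, the non-muscle myosin gene, and NCL, the nucleolin gene, had 7 each. All 7 Psi peaks of NCL were inside, with pileups of 6 to 10 in 2 m7G peaks of ratios 1.18 and 1.41, while the third m7G peak of NCL, with a ratio of 0.961, held none. HNRNPA2B1 likewise had all 6 of its Psi peaks, with pileups of 8 to 13, in a single m7G peak of 12 blocks and ratio 1.14.

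**Figure D3:**
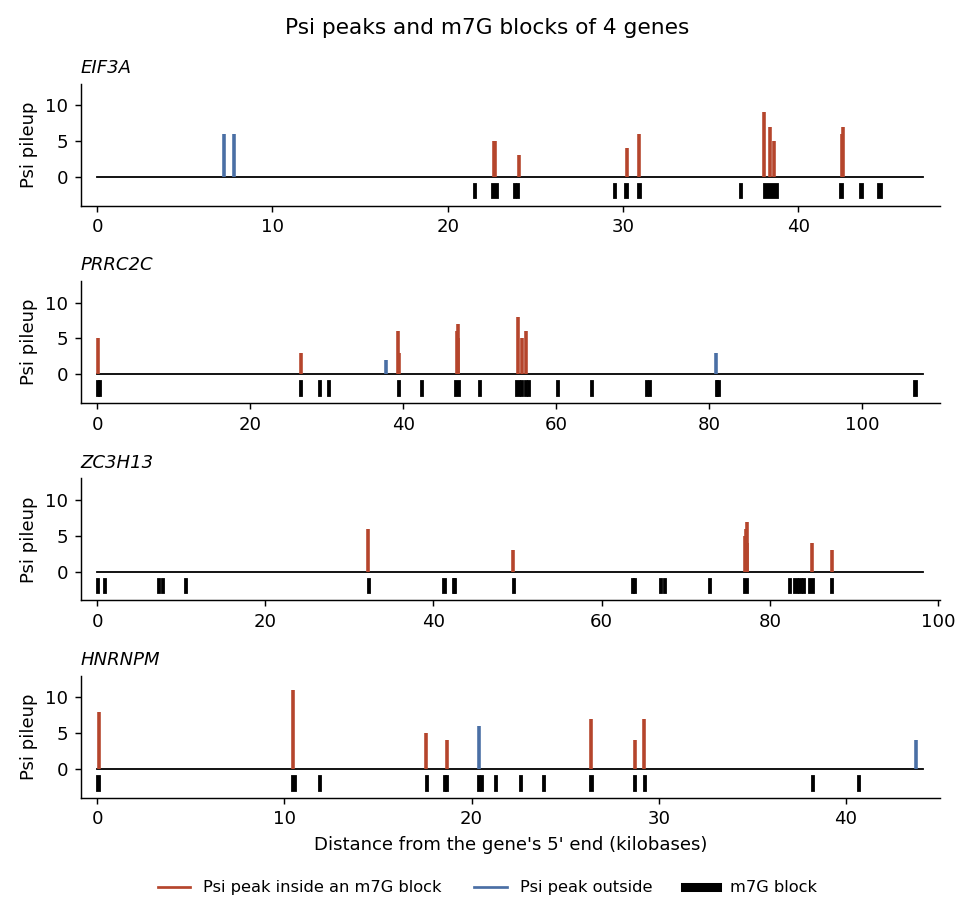
Psi peaks (height is the pileup, in tags) and m7G blocks along the spans of EIF3A, PRRC2C, ZC3H13 and HNRNPM, in kilobases from each gene's 5′ end, with short blocks drawn at a minimum width. Of the Psi peaks 10, 10, 8 and 7 stand inside m7G blocks and 2, 2, 0 and 2 outside.

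The share of Psi peaks inside m7G blocks was then described for gene groups, beside 30.1% over all m7G-listed genes. The lists share members such as NCL, DKC1 and EIF4E, and peaks of a gene are not independent. Nucleolar and small nucleolar ribonucleoprotein genes had 27 of 31 peaks inside (87.1%, 70.2 to 96.4), of which NCL and NPM1, the nucleophosmin gene, gave 7 each. Genes of SR proteins and hnRNPs, which bind pre-mRNA, had 51 of 79 (64.6%, 53.0 to 75.0), and chaperones had 39 of 67 (58.2%), with HSP90AB1 giving 5. Cytosolic ribosomal protein genes had 46 of 80 (57.5%), snoRNA host genes 9 of 18 and translation factors 48 of 98 (49.0%). Oxidative phosphorylation genes had 22 of 48 (45.8%), secreted plasma proteins 40 of 130 (30.8%, 23.0 to 39.5) and histones 4 of 14.

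The groups were also set beside the covered share of their own stretches, beyond 500 bases, where all m7G-listed genes together had 53.9% of summits inside with 36.0% of bases covered. Nucleolar genes had 95.8% of 24 summits inside with 64.2% of bases covered, a ratio of 1.49 next to 1.50 over all genes. SR protein and hnRNP genes had 82.6% of 46 summits inside with 56.8% of bases covered, chaperones 71.4% of 42 with 44.9%, and plasma proteins 33.7% of 89 with 21.3%, which are ratios of 1.45, 1.59 and 1.58. Translation factor genes had 60.7% of 61 with 43.6% (ratio 1.39) and oxidative phosphorylation genes 59.1% of 22 with 44.4% (1.33). Ribosomal protein genes had 51.8% of 56 with 43.2% (1.20), snoRNA host genes 77.8% of 9 with 66.0% (1.18) and histone genes 42.9% of 7 with 46.2% (0.928). The high shares of nucleolar and SR protein or hnRNP genes thus went with many covered bases, and the low share of plasma protein genes with few.

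Individual members showed how the ratios spread inside a group. Among ribosomal protein genes RPS14 had an m7G ratio of 5.86 over a Psi pileup of 9, and RPS4X one of 0.785 over the same pileup. RPLP2 had 1990 RPM in the IP and 1989 in the input over a pileup of 9. Among chaperones HSP90B1 had 1.58, CALR, the calreticulin gene, 1.48, HSP90AB1 1.15 and HSP90AA1 1.02, over pileups of 9 to 11. Among plasma proteins A2M had 2.80 over a pileup of 13, APOH 1.67 over 11 and AFP 0.646 over 11. AFP is the 1 of the 5 printed windows whose m7G peak had less IP than input, although its Psi summit lay 61 bases from the 5′ end. Among nucleolar genes the tallest inside peak of NPM1 stood at a ratio of 1.01 and that of NOP58 at 0.907.

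The genes that make the marks themselves were looked at singly. Of 11 m7G-listed pseudouridine synthase genes 4 had a Psi peak, with 5 peaks inside and 5 outside, while 53.8% of all m7G-listed genes had one. DKC1, which encodes dyskerin, had 3 inside, the tallest with a pileup of 6 at 101 bases from the 5′ end and an m7G ratio of 5.59 (5.52 to 5.67). PUS1, a stand-alone synthase gene, had 1 inside at a ratio of 4.19 (3.83 to 4.59), and TRUB1, another, had 1 inside at 0.901 (0.873 to 0.930). Of 11 listed genes for m7G and cap methylation or cap binding 5 had a Psi peak, with 3 peaks inside and 6 outside. They were inside in BUD23, a ribosomal RNA m7G methyltransferase gene (1.32), in CMTR1, a cap ribose methyltransferase gene (3.61), and in RNMT, the cap guanine methyltransferase gene (0.953).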

How the data were processed

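Peak lists for Psi and for m7G, m1A, m5C and ac4C were analysed. HISAT2, StringTie, DESeq and hg38 are named, without roles, in the submitters' processing notes, and the peak caller of the antibody lists was not stated in the sources used here. The authors deposited RPM values of IP and input, a log2 enrichment and a p-value for each antibody-list peak. Psi peaks were called with MACS 2.2.6 without a control, strands together, at a q-value limit of 0.05, per the file headers, which also give the pileup signal, the fold over background and the −log10 p-value and q-value. All RPM values (100%) were whole reads within 0.1 read, which gave exact intervals of RPM ratios. An input of 0 was set to a floor of 3 reads, which applied to 3 of the listed m7G peaks and to none holding a Psi summit.

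Of 8029 gene names in the m7G list 7964 matched a RefSeq table of GRCh38.p14, and 7962 had a span and 1 strand. A Psi peak in several listed spans (368 peaks) was assigned once, to the gene with the nearest 5′ end. No exon table was used, so exon, intron and untranslated region were not assigned. Covered shares were computed exactly, with no random placement. Scripts ran in Python 3.11.15 with numpy 2.4.6, pandas 2.3.3 and scipy 1.17.1 and were tested on simulated data. Intervals of medians come from order statistics.

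Members and gene lists were chosen with earlier results of these data known. Named were, 1 peak a gene by pileup, the 10 tallest inside peaks, the 10 tallest inside beyond 500 bases, the 10 tallest outside, the 6 holding m7G peaks of highest ratio, the 6 genes with most inside peaks and up to 4 of each gene list. The 10 tallest outside without ribosomal RNA were added after the values were seen. Values pooled over libraries allowed no count model, and some named members are given by counts only.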

Additional observations from a re-analysis of the deposited data

How the results depend on the processing

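No paired analysis was possible because every listed value pools its libraries, so neither a replicate block nor leaving out a replicate could be run. A direction could reverse only for the ratio to the covered share (16 alternative values) and the m7G ratio of holding peaks (9 values). None of them reversed. Of all 68 alternative values 40 stayed within the interval of the value reported. The others follow, with the cause of each move not tested unless the setting builds it in. The share inside m7G blocks (30.1%) was 32.0% with any shared base, 31.5% at −log10 q of at least 2, 36.4% at a pileup of at least 5, 25.3% with m7G peaks above the median significance and 26.0% with m7G peaks of more IP than input. Beyond 500 bases (23.9%) the same settings gave 25.5%, 25.0%, 30.5%, 19.1% and 18.3%, and a window of 200 bases gave 24.8%. Within 500 bases (65.7%) any shared base gave 68.7%, a pileup of at least 5 gave 75.6%, significant m7G peaks 61.5%, m7G peaks of more IP than input 69.1%, and windows of 200 and 1000 bases 75.1% and 63.0%. The ratio to the covered share beyond 500 bases (1.50) was 1.43 with any shared base, 1.55 with at least 50% of the Psi peak shared, 1.56 with m7G peaks of more IP than input, 1.43 with m1A stretches alone and 1.33 with m5C stretches alone. It was 1.27 within the same 10% of the gene's length, a setting added after seeing the data. The setting without ac4C stretches, also added then, gave 1.48, which is within the interval reported. The difference of median pileup, 0, was 1 at −log10 q of at least 2. The 1.36-fold m7G ratio of holding peaks was 1.27 at a pileup of at least 5, 1.43 for significant m7G peaks, 1.27 for m7G peaks of more IP than input and 1.27 with the authors' log2 enrichment. Leaving out ribosomal RNA genes, or taking the 5′ end from RefSeq promoter windows, kept every value within its interval. Low pileups, with a median of 4 tags, limit the ordering of Psi peaks.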

Other observations

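Peaks near an m7G block's edge were described separately. Of the 6788 outside Psi peaks 276 (4.07%) had the summit within 25 bases of an m7G block and 386 (5.69%) within 26 to 100 bases, with mean pileups of 4.46 and 4.55. Those 101 to 1000 bases away (1024 peaks) had a mean pileup of 5.45, and the 5102 farther away one of 4.16. Of the inside peaks 981 (33.6%) lay within 25 bases of the block's edge, with a mean pileup of 4.54, and 1943 lay deeper, with one of 4.83.

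By gene type, protein-coding genes held 2860 inside of 9457 Psi peaks (30.2%, 29.3 to 31.2), long non-coding RNA genes 35 of 138 (25.4%, 18.3 to 33.5) and transcribed pseudogenes 19 of 67 (28.4%, 18.0 to 40.7). Ribosomal RNA genes held 2 of 37 (5.41%, 0.661 to 18.2). Genes with inside peaks most often had just 1 (1316 of 1936 genes), 410 had 2 and 127 had 3.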
